A study of Mus musculus with 4 samples.

Results

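The 10 genes described here encode subunits of Polycomb repressive complex 2 (PRC2), namely *Ezh2*, *Ezh1*, *Eed*, *Suz12*, *Rbbp4*, *Rbbp7*, *Mtf2*, *Phf19*, *Jarid2* and *Aebp2*. They were taken by gene symbol from a deposited RNA-seq table of 18373 genes, and all 10 were present. The table covers primary mouse liver sinusoidal endothelial cells (LSECs), the fenestrated endothelium of the liver, which were prepared by enzyme perfusion of the livers of 8-week-old Balb/c mice and kept 24 h in culture. The cells then received siRNA for 48 h, either a control siRNA (NC) or siRNA against the long non-coding RNA *Airn* (si*Airn*), and were harvested on day 3. Each group held 2 libraries, numbered as biological replicates 1 and 2. No gene was deleted in either group, no agent other than siRNA is named, and the labels do not say whether the cells of one library came from 1 mouse or from several. The treatment notes speak of a pair of separate siRNAs against *Airn*, whereas the titles of both si*Airn* libraries name siAirn1, so whether the libraries received the same siRNA is unclear. No label names separate mice or cultures, and p-values may measure technical spread only.

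PRC2 methylates lysine 27 of histone H3, a mark that keeps genes silent through cell division. EZH2 or its paralogue EZH1 carries the methyltransferase activity, which requires EED and SUZ12, and the histone-binding proteins RBBP4 and RBBP7 complete the core. The core is joined by one of 2 sets of accessory proteins. MTF2 or PHF19 defines the form called PRC2.1 and directs it to CpG islands, while JARID2 together with AEBP2 defines PRC2.2. EZH2 is typical of dividing cells and EZH1 of resting cells. The study links *Airn* to *Ezh2*, and the comparison below asks whether the transcripts of the complex differed between the groups.

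The promoters of 3 subunits are shown for orientation. *Ezh2* was chosen because the study links *Airn* to it, and *Suz12* and *Aebp2* because their transcripts passed the test below. Each window runs from 250 bases before to 50 bases after the RefSeq start, 5′ to 3′ on the strand of the gene (build GRCm38.p6). Capitals mark matches to the E2F core words TTCCCGC and TTGGCGC or the related words TTCGCGC and TTGCCGC, searched on both strands.
*Ezh2*, chr6:47594981-47595280, minus strand: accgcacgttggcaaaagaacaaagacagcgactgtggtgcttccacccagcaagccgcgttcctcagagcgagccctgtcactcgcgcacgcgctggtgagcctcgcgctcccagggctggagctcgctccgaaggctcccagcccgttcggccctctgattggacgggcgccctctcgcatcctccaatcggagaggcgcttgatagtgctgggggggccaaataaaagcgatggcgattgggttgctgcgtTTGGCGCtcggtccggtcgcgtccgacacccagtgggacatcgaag
*Suz12*, chr11:79992856-79993155, plus strand: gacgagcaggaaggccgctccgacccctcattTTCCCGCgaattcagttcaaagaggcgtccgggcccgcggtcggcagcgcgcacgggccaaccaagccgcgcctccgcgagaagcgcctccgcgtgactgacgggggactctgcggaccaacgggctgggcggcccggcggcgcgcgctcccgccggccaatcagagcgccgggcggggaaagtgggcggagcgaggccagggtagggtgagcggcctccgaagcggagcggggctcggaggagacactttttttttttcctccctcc
*Aebp2*, chr6:140624659-140624958, plus strand: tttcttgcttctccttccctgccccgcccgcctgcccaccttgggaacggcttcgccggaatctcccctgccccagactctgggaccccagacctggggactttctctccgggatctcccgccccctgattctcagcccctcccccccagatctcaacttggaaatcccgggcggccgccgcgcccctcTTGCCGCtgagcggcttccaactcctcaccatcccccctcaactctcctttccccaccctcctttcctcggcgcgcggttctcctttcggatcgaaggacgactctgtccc
The match lay just downstream of the start in *Ezh2* (first base at position 5), and at positions -218 and -61 in *Suz12* and *Aebp2*. *Aebp2* has 3 RefSeq windows, and the one with the most CpG pairs is printed. Of the 14 windows of the 10 subunits, 5 held a match (1 each of *Ezh2*, *Suz12*, *Aebp2*, *Rbbp4* and *Phf19*), against 9.64% of the 32544 distinct windows in the reference. The 14 subunit windows held between 2 and 41 CpG pairs with a median of 23.5, and all windows a median of 7, so the subunit windows also differed in base composition. A match is a run of letters and not a measured binding site.

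The libraries held between 17308382 and 18371959 estimated counts, of which the PRC2 subunits took between 11402 and 13663. *Airn*, the targeted transcript, had counts of 7 and 3 in the NC libraries and 11 and 9 in the si*Airn*-labelled libraries. Its ratio was 1.97 (95% exact binomial interval 0.880 to 4.71, counting error only). These low counts showed no reduction of *Airn*, and every direction below is between libraries as labelled. The preparation had the endothelial markers *Eng* (1810 to 3027 CPM, counts scaled to a common library size) and the LSEC gene *Oit3* (555 to 903 CPM). In the test described below, at an adjusted p under 0.05, 8.56% of all genes tested fell and 8.27% rose, and markers of several cell types were among them. The summed level of 10 LSEC genes was 4313 and 4254 CPM in NC against 3248 and 2907 CPM in the si*Airn*-labelled libraries, and 8 of the 10 fell, among them *Lyve1* (log2 -0.84), *Flt4* (-0.58) and *Stab1* (-0.55). Of 8 pan-endothelial genes 6 fell, with sums of 8789 and 8473 against 6229 and 5521 CPM. Of 9 tested Kupffer cell and macrophage genes, led by *Lyz2*, 6 fell (222 and 267 against 172 and 141 CPM). Stellate cell genes, led by *Dcn*, summed to 1011 and 1207 against 1206 and 1597 CPM with 2 of 8 rising, and hepatocyte genes, led by *Alb*, to 599 and 760 against 836 and 1085 CPM with 1 of 7 rising. Lymphocyte genes, led by *Cd3e*, summed to 3.39 and 3.10 against 5.04 and 5.83 CPM, where 0 of 3 tested passed with edgeR's quasi-likelihood test or DESeq2, 2 had an unadjusted p under 0.05 and 2 passed the edgeR likelihood-ratio test. The size of some of these differences turned on 1 library. The median log2 fold change was 0.37 for stellate cell, 0.50 for hepatocyte and -0.70 for Kupffer cell and macrophage genes. Without si*Airn* replicate 1 these medians were 0.60, 0.70 and -0.98, and without si*Airn* replicate 2 they were 0.19, 0.31 and -0.61. The methods of the study name a density gradient and anti-CD146 magnetic beads, a selection for endothelial cells. Transcripts typical of other types were still measured, with *Alb* at 497 to 901 CPM and *Dcn* at 257 to 473 CPM over the libraries. In bulk RNA, fewer cells of a type and less RNA per cell cannot be told apart, and the part of these differences in the PRC2 values was not tested.

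Levels of different subunits were compared per length, as the deposited FPKM. In NC libraries the histone-binding subunits led, *Rbbp4* at 94.1 ± 4.57 (SD, n = 2) and *Rbbp7* at 75.99 ± 0.113 FPKM. *Eed* followed at 24.6 ± 1.27 FPKM. Below it came *Ezh1* at 15.0 ± 0.438, *Aebp2* at 13.0 ± 0.198, *Suz12* at 12.2 ± 0.820 and *Ezh2* at 11.5 ± 0.0919 FPKM, all within a narrow range. *Mtf2* stood at 7.86 ± 0.707, *Jarid2* at 3.51 ± 0.0283 and *Phf19* at 0.860 ± 0.212 FPKM, a span of 109-fold from top to bottom. Transcripts of both enzymes were measured, *Ezh1* above *Ezh2*, and of the PRC2.1 subunits in this set *Mtf2* was above *Phf19*. No neighbours in this order overlapped in their 2 NC libraries, although *Suz12* exceeded *Ezh2* by a factor of only 1.06 and its lowest library (11.6 FPKM) was next to the highest *Ezh2* library (11.54 FPKM). In the si*Airn*-labelled libraries, *Ezh1* (14.3 ± 1.56 FPKM) came after *Aebp2* (17.34 ± 0.552) and *Suz12* (16.4 ± 0.771), and its lower library met the higher *Ezh2* library at 13.15 FPKM, so these neighbours were not separated.

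**Figure D1:**
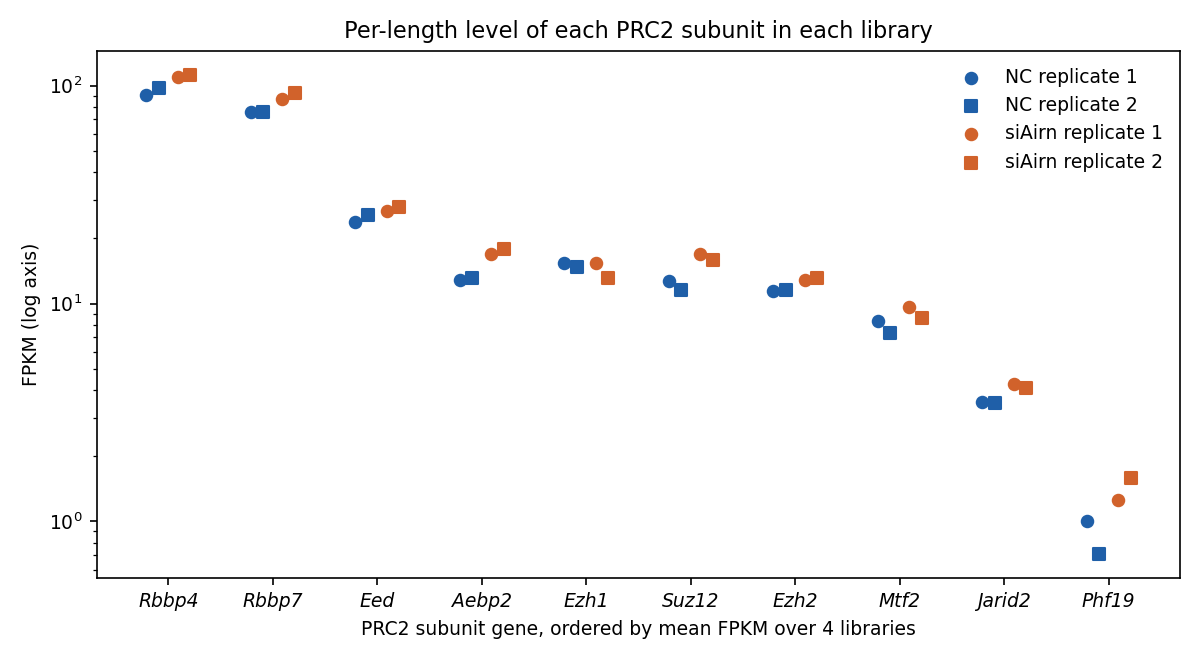
Deposited FPKM (log axis) of the 10 PRC2 subunit genes in each of the 4 libraries, ordered by their mean. Each point is 1 library, blue for NC and orange for libraries labelled siAirn; *Rbbp4* and *Rbbp7* lie above 75 FPKM in every library and *Phf19* below 1.6 FPKM.

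Differences between the groups were tested on counts with edgeR's quasi-likelihood test and Benjamini-Hochberg adjustment over the 13628 genes that passed the filter on low counts, which all 10 subunits did. Of the subunits, *Suz12* and *Aebp2* were higher in the si*Airn*-labelled libraries at an adjusted p under 0.05 and none was lower. The other 8, *Ezh2* among them, did not pass. Over all genes tested, 16.8% passed, 8.27% higher and 8.56% lower.

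*Ezh2* (gene ID 14056, GRCm38 chr6:47530139-47595341, minus strand), the catalytic subunit named in the study, was measured at 28.8 and 29.3 CPM in NC and at 31.7 and 30.9 CPM in the si*Airn*-labelled libraries. Both of the latter libraries lay above both NC libraries, by a small margin. The fold change was 1.08 (95% interval 0.944 to 1.23), or 0.11 ± 0.080 (SE) on the log2 scale, with an adjusted p of 0.388. The interval is not adjusted for the number of genes. Between 493 and 573 counts lay behind each value. *Ezh1* (chr11:101191115-101226463, minus strand), the less active paralogue, had 63.2 and 61.0 CPM in NC and 61.6 and 53.3 CPM in the si*Airn*-labelled libraries. It was the only subunit whose groups overlapped and the only one with a negative log2 fold change, -0.11 ± 0.086 (adjusted p = 0.399, edgeR quasi-likelihood test). Reads of the 2 paralogues are largely separable in the GENCODE M21 annotation, since no more than 1.11% of the 50-base windows of either transcript set occur in transcripts of any other gene.

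Among the core scaffold subunits, *Suz12* (chr11:79993106-80034123, plus strand), which holds the complex together, had 54.8 and 50.1 CPM in NC and 70.4 and 66.6 CPM in the si*Airn*-labelled libraries. The groups were well apart relative to their spread, and *Suz12* rose 1.31-fold (95% interval 1.15 to 1.48; log2 0.39 ± 0.076; adjusted p = 0.0202). This was the largest log2 fold change of the 10 subunits in this fit, though below that of *Phf19* in 5 of the 14 alternatives, and lay at the 87.5 percentile of all genes tested. *Eed* (chr7:89954654-89980983, minus strand), the subunit that reads the methylated histone, had 48.0 and 51.6 CPM in NC against 51.6 and 54.9 CPM. Its higher NC library and lower si*Airn* library almost coincided, and its log2 fold change was 0.10 ± 0.076 (adjusted p = 0.411).

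*Rbbp4* (chr4:129307100-129335370, minus strand) had 184 and 195 CPM in NC against 211 and 218 CPM in the si*Airn*-labelled libraries, with a log2 fold change of 0.18 ± 0.064 and an adjusted p of 0.0987. *Rbbp7* (chrX:162760402-162779092, plus strand) had 165 and 166 CPM against 183 and 198 CPM, with a log2 fold change of 0.20 ± 0.066 and an adjusted p of 0.0785. Neither passed the adjusted threshold, although the libraries of the groups did not overlap. Both proteins also serve in other chromatin complexes, so their transcripts are not specific to PRC2. The values of these genes are less certain than the others, because 17.2% of the 50-base windows of *Rbbp4* and 11.2% of those of *Rbbp7* also occur in transcripts of other genes, chiefly *Gm26722* and *Sync* on the opposite strand of *Rbbp4* and the *Gm6382* transcript for *Rbbp7*. Whether the counting used strand is not given in the sources used here.

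Of the PRC2.1 subunits, *Mtf2* (chr5:108065674-108109004, plus strand) had 34.6 and 31.7 CPM in NC against 40.2 and 36.4 CPM, a log2 fold change of 0.21 ± 0.091 (adjusted p = 0.161). *Phf19* (chr2:34893757-34914026, minus strand) was the least abundant subunit, with only 58 and 45 counts in NC against 68 and 67. Its log2 fold change of 0.36 ± 0.24 was nearly that of *Suz12*, but the 95% interval of the fold ran from 0.861 to 1.92 and the adjusted p was 0.337, so a difference was not detectable at this depth. Both *Mtf2* and *Phf19* had their lowest value in NC replicate 2.

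The PRC2.2 subunits had similar log2 fold changes. *Aebp2* (chr6:140622663-140678472, plus strand), which stabilizes the complex on nucleosomes, had 64.9 and 68.1 CPM in NC and 79.8 and 83.0 CPM in the si*Airn*-labelled libraries. The distance between groups exceeded the spread within them several times over, and *Aebp2* rose 1.22-fold (95% interval 1.10 to 1.36; log2 0.29 ± 0.066; adjusted p = 0.0288). *Jarid2* (chr13:44729474-44921643, plus strand), a substrate and recruiter of PRC2, had 18.8 and 19.1 CPM in NC against 23.2 and 22.4 CPM. Its NC libraries were nearly identical and its fold change was 1.20 (95% interval 1.04 to 1.398; log2 0.27 ± 0.091), with an adjusted p of 0.0887.

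**Figure D2:**
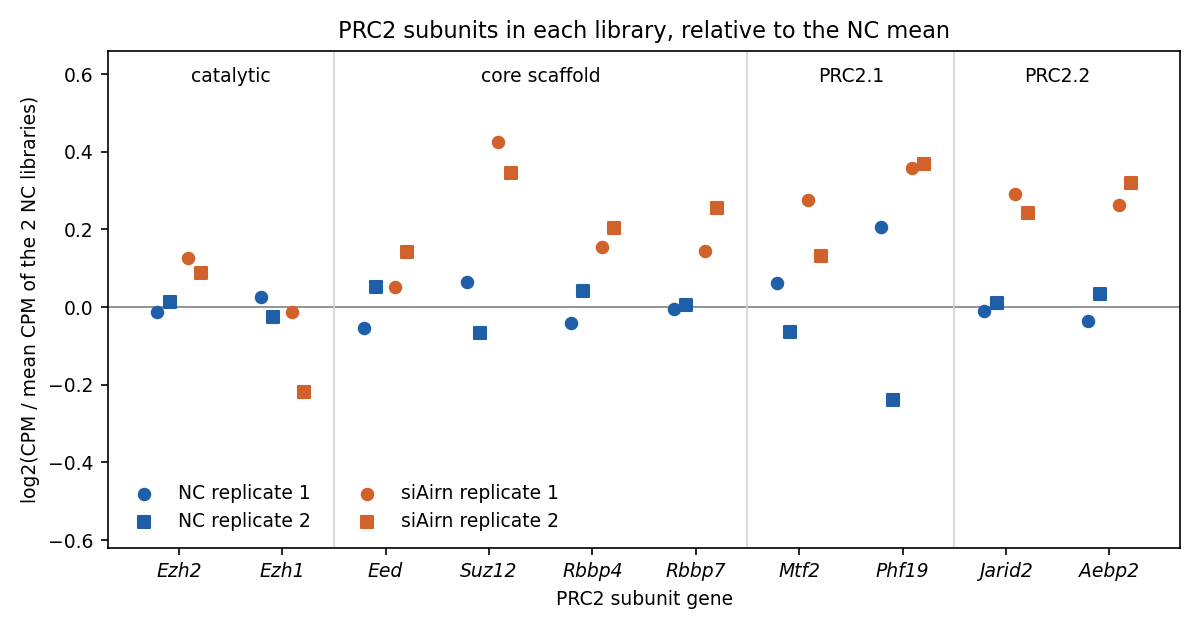
CPM of each PRC2 subunit in each library divided by the mean of the 2 NC libraries, on a log2 axis, with the subunits grouped by role. Both orange points (libraries labelled siAirn) lie above both blue points (NC) for 9 subunits; for *Ezh1* the groups overlap, with siAirn replicate 2 lowest.

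Across the set, both libraries labelled si*Airn* lay above both NC libraries for 9 of the 10 subunits, where the same held for 30.9% of all genes tested and the opposite for 31.9%. The summed level of the 10 genes was 666 and 674 CPM in NC and 756 and 767 CPM in the si*Airn*-labelled libraries. The median log2 fold change was 0.20 for the subunits and 0.00 for all genes tested. At an unadjusted p under 0.05, 5 subunits passed (*Suz12*, *Aebp2*, *Rbbp7*, *Jarid2* and *Rbbp4*), all of them higher, against 34.0% of all genes (16.8% higher). The study's own threshold for a changed gene, a fold over 1.4 with an unadjusted p under 0.05, was passed by none of the 10 with edgeR or DESeq2 and by 9.96% of all genes with edgeR (5.25% higher), and no subunit reached a fold of 1.4 in that fit. *Phf19* went past that fold, with a log2 fold change of 0.67 with limma on log2(FPKM + 0.1) and of 0.60 without NC replicate 1, but its value was 0.16 without NC replicate 2.

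The call on both subunits ended in a fit corrected for base composition and transcript length. In these libraries the log2 fold change of a gene fell with the GC content of its transcript (Spearman's rho -0.332 across genes, which are not independent replicates) and rose with its length (rho 0.364). The subunit transcripts are mostly AT-rich and long, with 8 of 10 below the median GC content of 49.7% and 7 of 10 above the median length of 3431 bases. *Aebp2* has a GC content of 40.9% over 5932 bases and *Suz12* of 41.6% over 4373 bases. With a correction for both properties in each library, no subunit passed and 2 (*Suz12* and *Rbbp7*) had an unadjusted p under 0.05. Of the 12948 genes in that fit, 8.12% passed the adjusted threshold, 2.83% higher, and 28.0% had an unadjusted p under 0.05. The log2 fold change became 0.25 for *Suz12* (adjusted p = 0.0797) and 0.06 for *Aebp2* (adjusted p = 0.579, edgeR quasi-likelihood test). It was 0.06 for *Rbbp4*, 0.05 for *Jarid2*, 0.04 for *Mtf2* and 0.07 for *Ezh2*, each below its uncorrected value. *Rbbp7* (0.19 after 0.20) and *Ezh1* (-0.11 in both) hardly moved, and *Eed* (0.14 after 0.10) and *Phf19* (0.43 after 0.36) had higher values than without the correction. The median over the subunits was 0.06 after correction, with the same 9 positive.

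**Figure D3:**
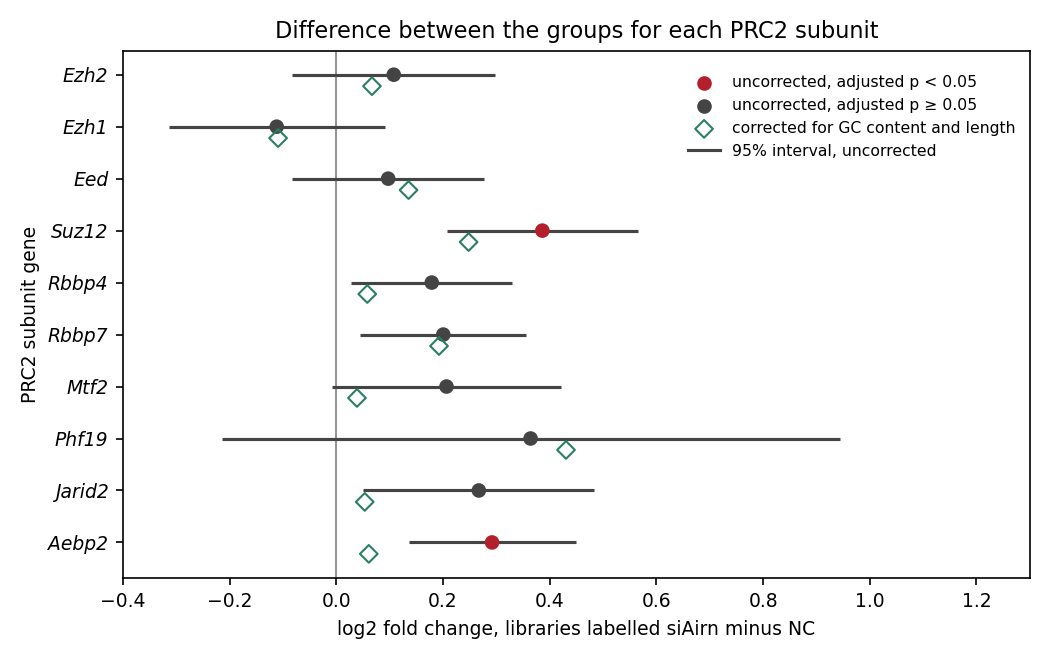
Log2 fold change of each PRC2 subunit, libraries labelled siAirn minus NC. Filled points with 95% intervals (not adjusted for the number of genes) are uncorrected, red where the adjusted p is under 0.05, and open diamonds are corrected for GC content and transcript length; *Aebp2* moves from 0.29 to 0.06 and *Suz12* from 0.39 to 0.25.

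The calls were also refitted with each library left out. Both were kept without si*Airn* replicate 1 (adjusted p = 0.0385 for *Suz12* and 0.0406 for *Aebp2*). Without NC replicate 1 or without NC replicate 2 no subunit passed, with adjusted p-values of 0.0793 and 0.140 for *Suz12* and of 0.149 and 0.130 for *Aebp2*, and without si*Airn* replicate 2 *Suz12* passed and *Aebp2* did not (adjusted p = 0.101). Over all genes tested, 40 and 0 genes passed in the fits without NC replicate 1 and NC replicate 2, so those fits called almost nothing, inside or outside PRC2, and say nothing of these subunits in particular. The log2 fold changes themselves remained positive, between 0.32 and 0.45 for *Suz12* and between 0.25 and 0.33 for *Aebp2*.

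The balance between alternative subunits was read as ratios of FPKM within a library. The ratio of *Ezh2* to *Ezh1* was 0.745 and 0.786 in NC and 0.834 and 1.00 in the si*Airn*-labelled libraries. Both of the latter were higher, by 0.26 on the log2 scale, with an exact two-sided permutation p of 0.333, the smallest that 2 libraries against 2 can give. The difference became 0.12 when si*Airn* replicate 2 was left out and 0.39 when the other si*Airn* library was left out. The ratio of *Rbbp4* to *Rbbp7* was 1.20 and 1.28 against 1.26 and 1.21, with overlapping groups and a log2 difference of 0.00. The ratio of the PRC2.1 subunits to the PRC2.2 subunits, *Mtf2* plus *Phf19* over *Jarid2* plus *Aebp2*, was 0.572 and 0.486 against 0.514 and 0.469, also overlapping (log2 difference -0.10, exact permutation p = 0.667). Its difference was 0.02 when NC replicate 1 was left out and -0.22 when NC replicate 2 was left out. The difference in this ratio of transcripts was therefore not larger than the spread between libraries. The ratio leaves out the PRC2.1 gene *Phf1*, whose mean in NC was 7.99 FPKM, near the 7.86 FPKM of *Mtf2*. *Phf1* had 7.46 and 8.52 FPKM in NC against 7.5 and 5.98 FPKM in the si*Airn*-labelled libraries. Whether the groups overlap with *Phf1* counted was not tested, so no conclusion is drawn on the balance between the 2 forms of the complex.

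Genes that act with or against PRC2 were read from gene lists. Of 4 other PRC2-associated genes tested, 1 rose and none fell, beside 8.27% and 8.56% of all genes. *Lcor*, whose locus also encodes the PRC2.1 factor PALI1, had 47.9 and 43.2 CPM in NC against 64.0 and 64.6 CPM and a log2 fold change of 0.50 ± 0.077 (adjusted p = 0.0115). *Phf1*, the PRC2.1 relative of *Mtf2* and *Phf19*, had a log2 fold change of -0.26 (adjusted p = 0.171, edgeR quasi-likelihood test). That of the PRC2.1 factor *Epop* was -0.19 (adjusted p = 0.243) and that of *Skida1* -0.12 (adjusted p = 0.837). When corrected for GC content and length, the values were -0.13 for *Phf1*, 0.00 for *Epop* and -0.18 for *Skida1*. *Ezhip* was not analysed here. Both demethylases that remove the PRC2 mark had positive values. *Kdm6b* (JMJD3) rose from 31.7 and 29.4 CPM to 39.6 and 41.3 CPM (log2 0.41 ± 0.082; adjusted p = 0.0216), and *Kdm6a* (UTX) had a log2 fold change of 0.29 (adjusted p = 0.0926), or 0.08 (adjusted p = 0.635) with GC content and length corrected for. The calls on *Lcor* and *Kdm6b* were kept once GC content and length were corrected for, with log2 fold changes of 0.34 (adjusted p = 0.0396) and 0.37 (adjusted p = 0.0330). The call on *Kdm6b* was lost without si*Airn* replicate 2, a fit that called 1446 genes in all.

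PRC1, the sister complex that ubiquitinates histone H2A, had 2 of 22 tested genes higher and none lower, with a median log2 fold change of 0.09, beside 8.27% of all genes called higher. These were *Phc3*, a Polyhomeotic subunit (log2 0.46; adjusted p = 0.0118), and *Bcor*, a subunit of a variant PRC1 (0.32; adjusted p = 0.0234). Of 3 tested genes of PR-DUB, the enzyme complex that removes the PRC1 mark, *Asxl2* rose (0.38; adjusted p = 0.0146). Once GC content and length were corrected for, *Phc3*, *Bcor* and *Asxl2* had adjusted p-values of 0.200, 0.0736 and 0.764, while the PRC1 genes *Cbx6* (log2 -0.39; adjusted p = 0.0367) and *Phc2* (0.28; adjusted p = 0.0410) passed in that fit. Without si*Airn* replicate 2, 1 PRC1 gene passed in place of 2. *Ring1*, a catalytic PRC1 gene, was listed at 0.166 CPM in NC replicate 2 and at 0 in the other 3 libraries, whereas its paralogue *Rnf2* was at 50.1 to 61.7 CPM. The estimated count of *Ring1* in NC replicate 2 was 2.63, not a whole number. How far its reads were assigned to other loci was not tested, so absence of the transcript cannot be read from these values.

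The histone deacetylase and remodelling complexes that share *Rbbp4* and *Rbbp7* with PRC2 had 1 of 17 genes higher and 2 lower, with a median log2 fold change of -0.06, beside 8.27% and 8.56% of all genes. *Sin3a*, the scaffold of the SIN3 complex, rose (0.27; adjusted p = 0.0330), and the methyl-CpG-binding NuRD subunits *Mbd2* (-0.33; adjusted p = 0.0382) and *Mbd3* (-0.30; adjusted p = 0.0237) fell. None of the 3 passed once GC content and length were corrected for, with adjusted p-values of 0.141, 0.310 and 0.470, and none of the 17 passed without si*Airn* replicate 2. Of 13 genes known to be silenced by PRC2 in embryonic stem cells, 9 were in the table and 4 passed the filter on low counts. None of these passed the edgeR test or DESeq2 at an adjusted p under 0.05, beside 16.8% of all genes with edgeR. Their median log2 fold change was -0.02, or -0.06 when si*Airn* replicate 1 was left out. Only *Cdkn2a*, a cell cycle inhibitor kept silent by PRC2 in young cells, had an unadjusted p under 0.05. It had 3.74 and 4.37 CPM in NC against 2.55 and 2.88 CPM (log2 -0.58; adjusted p = 0.127). Once GC content and length were corrected for, its log2 fold change was -0.33 (adjusted p = 0.354). With the replicate number as a block, 1 of the 4 genes passed, as did 4841 of all 13628 genes.

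Because *Ezh2* is typical of dividing cells, proliferation genes were read beside it. Of 18 such genes 7 rose and none fell, with a median log2 fold change of 0.29, beside 8.27% of all genes called higher. The 7 were 6 genes of the MCM helicase, which unwinds DNA for replication, and *Rrm2*, a subunit of ribonucleotide reductase. Other replication genes of the list did not pass the edgeR quasi-likelihood test, *Pcna* at 0.10 (adjusted p = 0.287) and *Tyms* at -0.10 (adjusted p = 0.564). The log2 fold change was positive for 14 of the 18 genes. Among genes not called it ran from -0.35 (*Aurkb*) to 0.75 (*Bub1*), with *Ccna2* at -0.03 and *Cdk1* at 0.01. *Mcm4* had the smallest p and rose from 40.3 and 41.0 CPM to 59.0 and 63.9 CPM (log2 0.60; adjusted p = 0.00751). Next in order of p came *Mcm6* (0.47; adjusted p = 0.0129), *Mcm2* (0.36; adjusted p = 0.0282) and *Mcm7* (0.31; adjusted p = 0.0286). Without si*Airn* replicate 2 only 2 genes of the list passed, and the median of the list was 0.17 when GC content and length were corrected for. The 4 *Mcm* genes just named kept an adjusted p under 0.05 once GC content and length were corrected for, from 0.0124 to 0.0311. *Rrm2* lost its call in that fit (log2 0.43; adjusted p = 0.0534). *Mki67*, a marker of cycling cells, stood at 5.37 to 8.36 CPM and did not pass (log2 0.42; adjusted p = 0.133). Its log2 fold change was 0.15 (adjusted p = 0.587) under the same correction. Of 11 genes for E2F factors and the retinoblastoma proteins that bind them, which control replication genes, only *E2f4*, a repressor in resting cells, passed, and it fell, as did 8.56% of all genes (-0.32; adjusted p = 0.0182; 0.144 after the correction, where *Rb1* passed at -0.33 with an adjusted p of 0.0341). The part of proliferation in the PRC2 values was not tested.

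**Figure D4:**
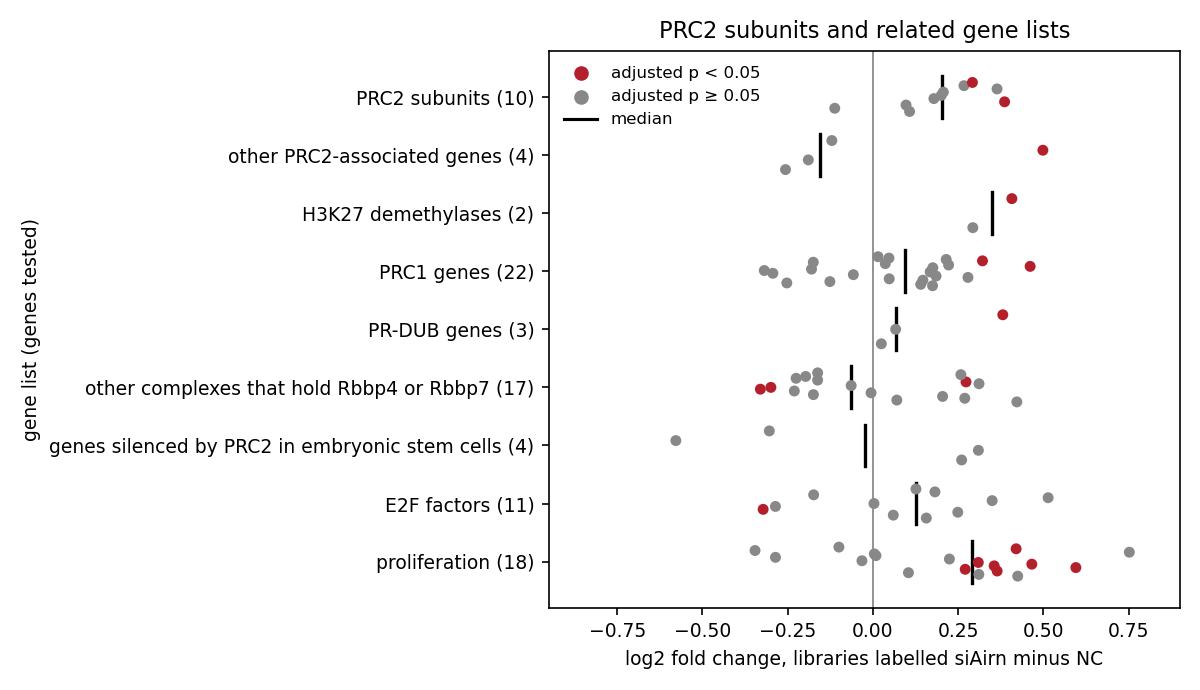
Log2 fold change, libraries labelled siAirn minus NC, of each tested gene in the PRC2 subunit list and 8 related lists, with the number of genes tested in parentheses. Points are genes, red where the adjusted p is under 0.05, and black bars are list medians; the medians are 0.20 for PRC2 subunits, 0.29 for proliferation genes and -0.06 for the other complexes that hold Rbbp4 or Rbbp7.

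Of the genes the study places downstream, *Nos3*, the endothelial nitric oxide synthase, had 35.3 and 30.03 CPM in NC against 24.5 and 20.3 CPM in the si*Airn*-labelled libraries and fell by 0.55 on the log2 scale (adjusted p = 0.0302). *Nos3* did not pass with limma on log2(FPKM + 1) or log2(FPKM + 0.1). Once GC content and length were corrected for, its log2 fold change was -0.46 and its adjusted p 0.0640. *Klf2*, a transcription factor of the flow-exposed endothelium, had 14.7 and 13.4 CPM against 12.4 and 12.2 CPM, a log2 fold change of -0.19 (adjusted p = 0.284) that became 0.02 (adjusted p = 0.939) under the same correction.

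The 3 genes outside all lists whose centred log2 CPM lay nearest to that of *Ezh2* over the 4 libraries, among 10365 candidates of at least 5 CPM, were *Zscan25*, *A630089N07Rik* and *Gpn3*, at Euclidean distances between 0.00886 and 0.00969. Each had its lowest level in NC replicate 1 and its highest in si*Airn* replicate 1, the order seen for *Ezh2*, with log2 fold changes between 0.11 and 0.12. This likeness follows from the choice by distance on the same values and is no separate result.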

How the data were processed

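The authors deposited 1 table with estimated counts and, under a header that names no unit, a second value that the authors computed and that behaves as FPKM. Libraries were single-end reads of 50 bases. The submitters' processing notes name RSEM, Bowtie2 and BWA without versions, and the human build hg19, although the cells are mouse, so the build used for counting is uncertain. Counting by strand, and filters, are not given in the sources used here. Columns of group means were not used.

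Estimated counts were rounded and tested in R 4.3.3 with edgeR 4.0.16 (TMM, filterByExpr defaults, glmQLFit with robust set to false, glmQLFTest, no covariate), with Benjamini-Hochberg adjustment over 13628 genes. Standard errors are those implied by the F statistic. CPM use TMM-scaled totals. GC content and length are of the longest GENCODE M21 transcript and entered as per-library spline offsets with 5 degrees of freedom. Subunit coordinates and the uniqueness of 50-base windows are from GENCODE M21, and promoter windows from RefSeq, which matched all 10 symbols. Exact permutation tests were used for ratios, two-sided. Alternatives used limma 3.58.1 and DESeq2 1.42.0, other filters and normalizations, a replicate block and leaving out each library.

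The subunits and all lists were chosen with earlier results of these data known. Named genes were all 10 subunits, every gene of the small associated lists, called genes of the other chromatin lists (the 4 smallest p where more than 4 passed), the 3 nearest to *Ezh2*, and the most abundant gene of each cell type list. *Ring1*, *Rnf2*, *Cdkn2a*, *Mki67*, *Hdac1*, *Cbx6*, *Phc2*, *Rb1*, *Rrm2*, *Pcna*, *Tyms*, *Aurkb*, *Bub1*, *Ccna2*, *Cdk1*, *Lyve1*, *Flt4* and *Stab1* were named after their values were seen.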

Additional observations from a re-analysis of the deposited data

How the results depend on the processing

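*Suz12* and *Aebp2* were the subunits called, 2 in all, with upper-quartile normalization, DESeq2, either filter on low counts, the edgeR likelihood-ratio test and limma on log2(FPKM + 1) or log2(FPKM + 0.1), and no subunit changed direction in any of the 14 alternatives. With limma on log2(FPKM + 0.1), 1 subunit, *Phf19*, passed the study's fold threshold. With the correction for GC content and length, 0 subunits and 1052 genes were called, 367 of them higher, in place of 2294 genes, 1127 of them higher. DESeq2 called 4 of the proliferation genes in place of 7, and the correction left 2 Kupffer cell and macrophage genes in place of 6. Leaving out 1 library gave between 0 and 2 subunits and between 0 and 2410 genes, with the lone library assumed to vary like the other group. By the labels, same-numbered libraries of the groups share only a number, and whether they share a preparation is not given. Their deviations from the group means correlated at 0.27. In both groups replicate 2 had the higher sums of hepatocyte and stellate cell genes and the lower sum of pan-endothelial genes. The sums of Kupffer cell and macrophage genes had opposite orders in the groups. With the replicate number as a block, 6 subunits (*Aebp2*, *Jarid2*, *Mtf2*, *Rbbp4*, *Rbbp7*, *Suz12*) and 4841 genes were called, and with the block and the correction together 2 subunits (*Rbbp7* and *Suz12*) and 4319 genes. The causes of these shifts were not tested. The low count of *Phf19* limits its precision, and 2 libraries a group limit all values.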

Other observations

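The deposited FPKM and the counts gave unlike differences for some subunits. From the group means of FPKM, the log2 difference was 0.42 for *Aebp2* and 0.72 for *Phf19*, against 0.29 and 0.36 from counts. *Phf19* had 68 and 67 counts in the libraries labelled si*Airn* but 1.25 and 1.59 FPKM. For *Suz12* and *Jarid2* both measures lay close together, at 0.43 and 0.39 for *Suz12* and at 0.25 and 0.27 for *Jarid2*. The cause was not tested.

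*Hdac1*, the deacetylase that works beside *Rbbp4* in several complexes, was at 1.27 to 2.60 CPM in the 4 libraries. Its estimated counts were not whole in any library (31.82, 22.52, 28.66 and 46.17), and how far its reads are shared with other loci was not tested.

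Other short words were counted in the promoter windows. CCAAT, the NF-Y word, was found on either strand in 9 of the 14 subunit windows against 37.4% of all windows, GGGCGG, the SP word, in 9 of 14 against 35.9%, and CCGGAAG, an ETS word, in 0 of 14 against 8.91%.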
